A study of Mus musculus and Homo sapiens with 17 samples.

Results

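Skeletal muscle genes were followed as a set of 36 genes, the proteins of which build and run the contractile apparatus of muscle fibres. They were chosen by name, and all 36 were found among the 55988 rows of the mouse count table, of which 54532 carry a gene name. The set holds genes of the thin filament and Z disc, the troponin complex, the thick filament, calcium handling, energy supply and the cytoskeleton, and 35 of the 36 had enough counts to be tested.

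RNA came from whole frozen sections of skin and skin tumours of C57BL/6-129 mice, all treated with DMBA, a carcinogen, and TPA, a tumour promoter. The groups were 2 libraries of squamous cell carcinoma (SCC) labelled Dusp1 knockout (KO), 3 of papilloma labelled KO, 3 of wild-type (WT) SCC and 3 of WT skin. Dusp1 encodes a phosphatase that switches off MAP kinases. The cell type label reads keratinocytes, although every cell of a section entered the RNA, and the labels give neither the age of the mice, nor how the knockout was made, nor whether libraries came from separate animals. The p-values therefore measure the spread between these libraries. In RNA of whole sections, fewer muscle fibres and less RNA per fibre cannot be told apart.

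Mouse skin carries a thin sheet of skeletal muscle beneath the dermis, the panniculus carnosus. Contraction starts when calcium leaves the sarcoplasmic reticulum and binds troponin on the thin filament, which frees actin for myosin heads. Fast and slow fibres use different genes for the same part, so that troponin T is encoded by Tnnt3 in fast fibres and Tnnt1 in slow fibres, and the myosin heavy chain by Myh4, Myh1 and Myh2 in fast fibres (types IIb, IIx and IIa) and Myh7 in slow fibres.

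The 11 libraries held 34.4 to 47.9 M counts (M stands for 1000000) each, and counts of a typical gene varied by 36.6% between libraries of a group (biological coefficient of variation). Dusp1 transcript was not lower in the libraries labelled KO, at 139 and 174 counts per 1000000 counts (CPM) in KO SCC and 109 to 129 CPM in KO papilloma, against 66.6 to 83.7 CPM in WT SCC and 52.4 to 109 CPM in WT skin, so genotype is given here as labelled. Genes of the Y chromosome had 4779 counts in KO SCC replicate 2, 6624 and 9552 in WT skin replicates 1 and 2, 7 in WT skin replicate 3 and 0 in the other 7 libraries. WT SCC replicate 3 stood apart in the muscle genes themselves. It held more of a member than each of the other 7 lesion libraries for 28 of the 36 members (77.8%), whereas it did so for 11.3% of all 22371 genes tested.

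The summed level of the 36 members was 45.0 and 36.8 CPM in KO SCC and 41.2, 41.4 and 46.1 CPM in KO papilloma. It was 37.0, 55.6 and 264 CPM in WT SCC, and 10419, 13848 and 10307 CPM in WT skin. The 36 genes thus took 1.22 to 1.72% of all counts in skin and at most 0.0277% in a lesion. Set against the skin mean, the sum was 0.390 and 0.320% in KO SCC, 0.358, 0.359 and 0.400% in KO papilloma, and 0.321, 0.482 and 2.29% in WT SCC. The 8 lesion libraries did not overlap the 3 skin libraries, and among lesions WT SCC replicate 3 was the highest.

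**Figure D1:**
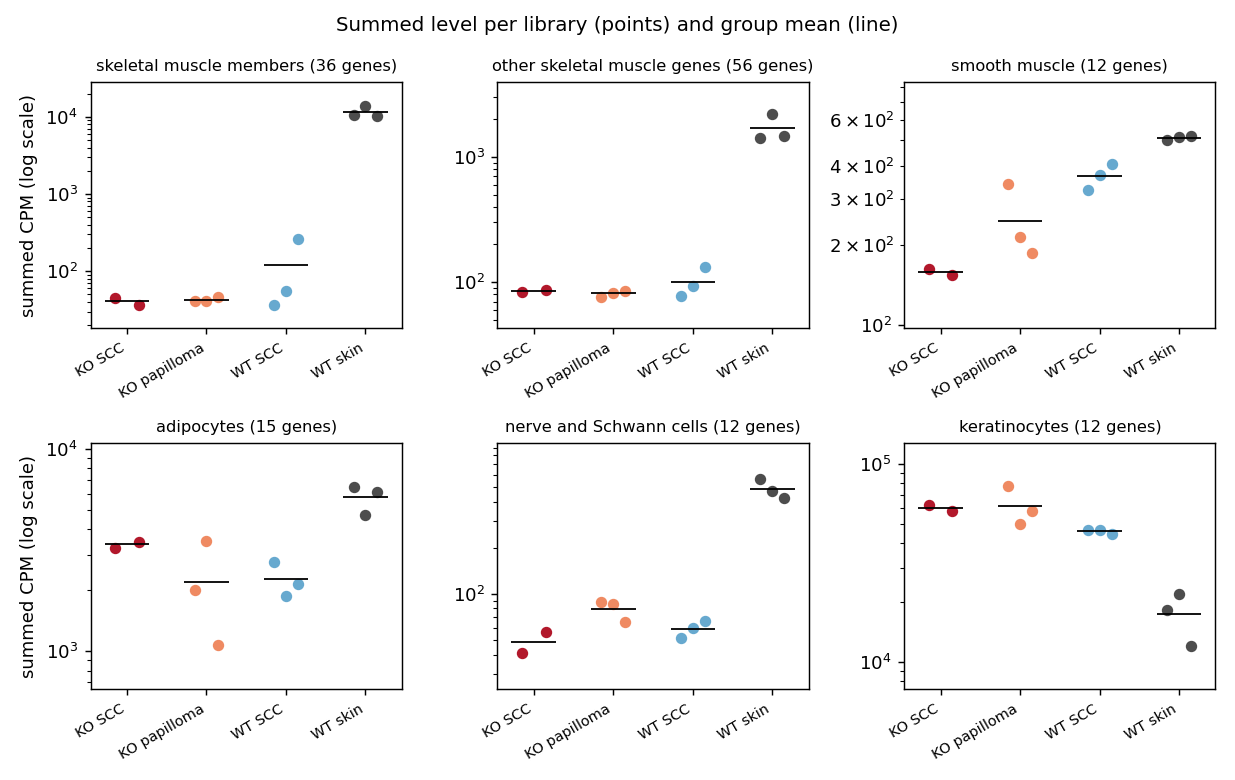
Summed level in each library, in CPM on log axes that differ between panels, of the 36 skeletal muscle genes and of 5 other gene lists (56 other skeletal muscle genes, smooth muscle, adipocytes with Fabp4 included, nerve and Schwann cells, and keratinocytes), with a point per library, a line at the group mean, and groups from left to right KO SCC, KO papilloma, WT SCC and WT skin. In the panel of the 36 genes the skin libraries lie between 10307 and 13848 CPM, 7 lesion libraries lie between 36.8 and 55.6 CPM, and WT SCC replicate 3 lies between them at 264 CPM.

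Within skin the members spanned a wide range when levels were expressed per kilobase of exon. Acta1, the actin of skeletal muscle thin filaments, was first at 1191 ± 283 CPM per kb (SD, n = 3). Tnnt3 followed at 844 ± 164 CPM per kb and Mylpf, the regulatory light chain of fast myosin, at 660.04 ± 107 CPM per kb. The next members were Tnni2, the inhibitory troponin of fast fibres, at 565 ± 101 CPM per kb and Pvalb, a calcium buffer of fast fibres, at 549 ± 65.9 CPM per kb. The distance between Tnni2 and Pvalb was smaller than either SD, and Pvalb was the higher in skin replicates 1 and 3, so their order is not resolved. The distance between Mylpf and Tnni2 was also smaller than either SD, although Mylpf was the higher in each skin library. Tcap, which caps titin at the Z disc, stood at 347 ± 35.3 CPM per kb, and Ckm, the muscle creatine kinase, at 248 ± 31.1 CPM per kb. Of the genes of slow fibres, Tnnt1, Tnni1, Tnnc1 and Myh7 were among the last. Tnnt1 stood at 1.26 ± 1.66 and Tnni1 at 0.738 ± 0.688 CPM per kb, Tnnc1 at 0.415 ± 0.111 and Myh7 at 0.0352 ± 0.0318 CPM per kb. Mybpc1, the slow form of myosin-binding protein C, was higher, at 33.3 ± 14.8 CPM per kb, beside 38.2 ± 1.04 CPM per kb for Mybpc2, the fast form. Tnnc2, a gene of fast fibres, lay between Tnnc1 and Myh7 at 0.0468 ± 0.0402 CPM per kb. Its distance from Myh7 was smaller than either SD, so the order of Tnnc2 and Myh7 is not resolved. The very large transcripts of Ttn, Neb and Ryr1 were also low per kilobase, at 1.45 ± 0.660, 3.77 ± 1.67 and 1.64 ± 0.393 CPM per kb.

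The promoters of Myh4, Ckm, Atp2a1 and Des, which are followed through every comparison, are shown because promoters of muscle genes carry sites for muscle transcription factors. Each is the 250 bases before the RefSeq start on GRCm38.p6, read 5′ to 3′ on the strand of the gene. Myh4 is at chr11:67237562-67237811 on the plus strand, Ckm at chr7:19410844-19411093 on the plus strand, Atp2a1 at chr7:126463074-126463323 on the minus strand and Des at chr1:75360042-75360291 on the plus strand. Capitals mark the E-box CAGCTG, which reads the same on both strands and is of the kind bound by MyoD family factors, and the CArG box and the MEF2 site, which serum response factor and MEF2 factors bind.
Myh4: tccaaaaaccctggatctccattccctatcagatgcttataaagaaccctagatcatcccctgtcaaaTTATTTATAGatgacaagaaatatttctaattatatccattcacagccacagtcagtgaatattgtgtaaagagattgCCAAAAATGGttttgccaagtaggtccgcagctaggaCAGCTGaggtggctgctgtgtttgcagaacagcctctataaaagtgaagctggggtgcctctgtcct
Ckm: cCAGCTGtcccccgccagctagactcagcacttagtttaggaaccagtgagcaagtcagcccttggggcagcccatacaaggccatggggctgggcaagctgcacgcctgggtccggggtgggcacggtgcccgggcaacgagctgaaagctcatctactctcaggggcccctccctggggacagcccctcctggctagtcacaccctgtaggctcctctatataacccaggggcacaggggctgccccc
Atp2a1: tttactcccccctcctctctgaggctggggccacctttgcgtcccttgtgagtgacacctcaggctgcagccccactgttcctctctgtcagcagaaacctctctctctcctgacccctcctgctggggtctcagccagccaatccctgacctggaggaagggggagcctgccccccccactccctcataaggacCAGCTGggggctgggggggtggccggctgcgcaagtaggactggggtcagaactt
Des: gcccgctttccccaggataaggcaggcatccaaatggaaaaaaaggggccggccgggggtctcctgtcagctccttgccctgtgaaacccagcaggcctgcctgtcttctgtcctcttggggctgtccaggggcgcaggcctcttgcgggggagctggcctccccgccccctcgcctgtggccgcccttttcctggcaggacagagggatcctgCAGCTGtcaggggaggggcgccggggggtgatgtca

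RefSeq promoter entries were found for 30 of the 36 members, with 35 start sites. CAGCTG was present in 16 of these 35 windows (45.7%), and in 13% of all 32851 windows of the same length. It lay 67 to 62 bases before the start in Myh4, 249 to 244 in Ckm, 55 to 50 in Atp2a1 and 36 to 31 in Des. A CArG box was found in 2 member windows, those of Acta1 and Myh4 (5.71%, against 1.47% of all windows), and a MEF2 site in 6 (17.1%, against 2.92%), among them Myh4, Myh1, Pvalb and Ttn. These are matches of letters, and binding was not measured.

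Carcinomas of the same genotype label as the skin, WT SCC, were compared with WT skin to follow muscle genes from treated skin to tumour. Of the 35 members tested 32 fell and none rose, where 23.6% of all genes tested fell and 16.9% rose. The median log2 fold change was -6.48 over the members and -0.16 over all genes. The members that did not pass were Tnni1, Tnnc1 and Myh7, all genes of slow fibres. DESeq2 called 27 members lower and gave no adjusted p for 5. Without WT SCC replicate 3 the number stayed at 32, and the median became -8.77. Of the 35 members, 5 (Cacna1s, Mybpc2, Myh2, Myh7 and Smpx) met the filter on low counts only with the skin libraries and so had to be higher there to be tested.

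The same held for the lesions labelled KO, in which lesion and genotype differ from WT skin together. In KO papilloma 32 of 35 members fell and none rose, against 22.4% of all genes that fell and 17.1% that rose, with a median log2 fold change of -9.0 (-8.87 with members at 0 counts set to their bound) and -0.22 over all genes. In KO SCC 32 fell and none rose, against 24.3% of all genes that fell and 20.5% that rose, with a median of -8.78 and -0.30 over all genes. Tnni1, Tnnc1 and Myh7 again did not pass in either. In each of them DESeq2 called 27 members lower and gave no adjusted p for 5. These comparisons and that of WT SCC share the 3 skin libraries, so they are not independent of each other. Of the 32 members called in each comparison, 31 kept their call under every alternative that gave an adjusted p, and the exception in all 3 was Tnnt1.

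**Figure D2:**
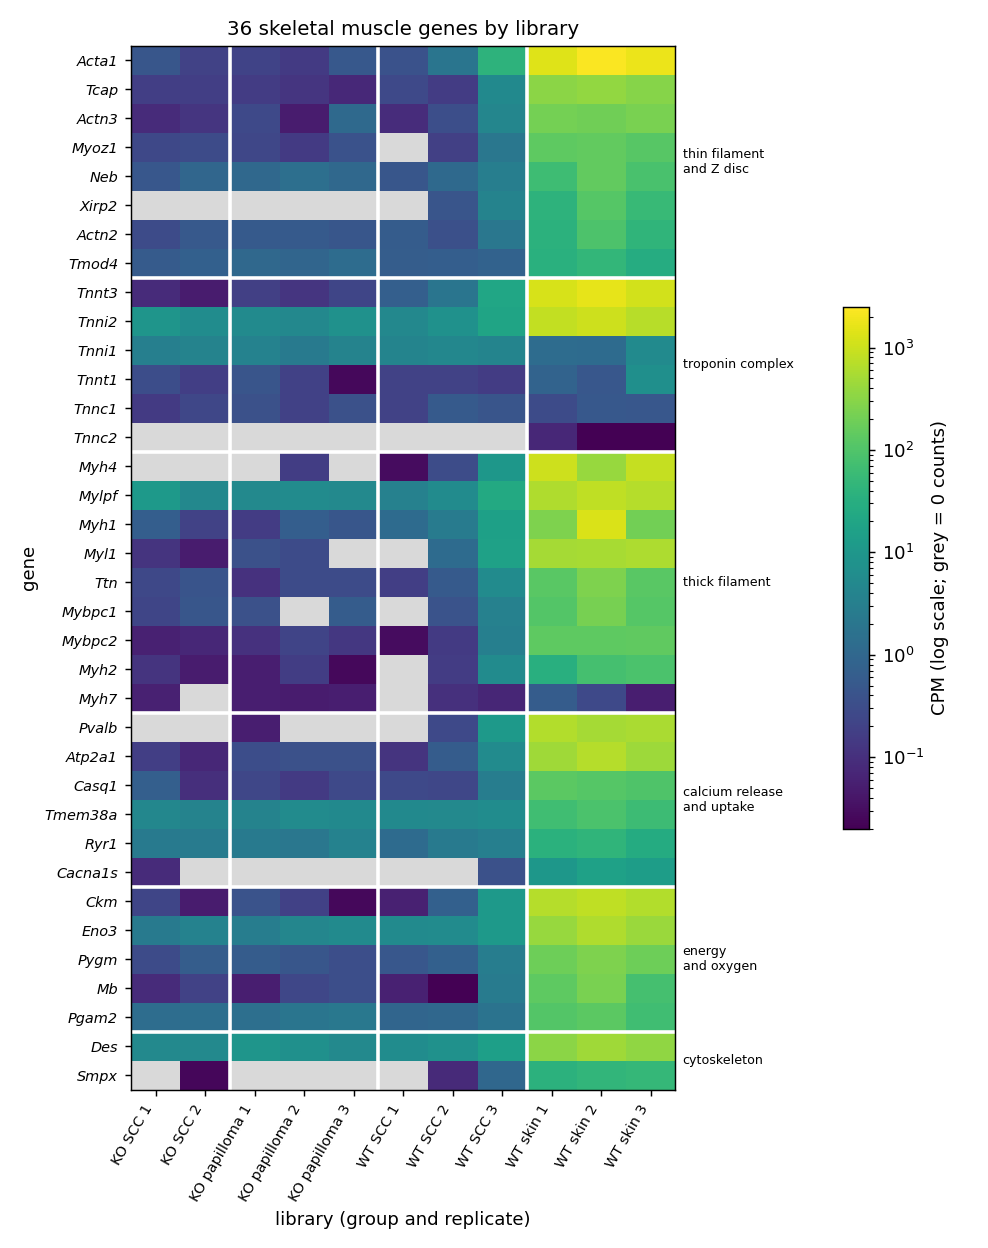
Level of each of the 36 members in each library, as a colour for CPM on a log scale with grey for 0 counts, with members in rows by role and libraries in columns from KO SCC on the left through KO papilloma and WT SCC to WT skin. Most rows are high in the 3 skin columns alone, WT SCC replicate 3 is intermediate, and the row of Tnni1 is higher in lesions than in skin replicates 1 and 2 and lower than in skin replicate 3.

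Thin filament and Z disc genes were 8 members, and all 8 fell in each lesion group relative to skin. Acta1 (ENSMUSG00000031972.5, chr8:123891769-123894751, GRCm38) had 0.462 and 0.199 CPM in KO SCC, 0.213, 0.146 and 0.498 CPM in KO papilloma, 0.377, 1.89 and 38.7 CPM in WT SCC, and 1438, 2296 and 1756 CPM in WT skin. No lesion overlapped skin, and WT SCC replicate 3 exceeded the next lesion 20.4-fold. The log2 fold change against skin was -12.45 ± 2.10 (SE) in KO SCC (edgeR adjusted p = 0.00073), -12.64 ± 1.74 in KO papilloma (adjusted p = 0.000266) and -7.06 ± 1.35 in WT SCC (adjusted p = 0.00202). Without WT SCC replicate 3 the last value was -10.61 ± 0.82 (adjusted p = 3.25e-05).

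Tmod4, which caps the slow-growing end of actin filaments, kept a low level in every lesion. It had 0.577 and 0.745 CPM in KO SCC, 1.06, 0.900 and 1.26 CPM in KO papilloma, 0.639, 0.680 and 0.792 CPM in WT SCC, and 34.9, 47.0 and 29.0 CPM in WT skin. WT SCC replicate 3 did not stand out, and the fall was among the best resolved of all members, at -5.79 ± 0.31 in KO SCC (edgeR adjusted p = 2.06e-06), -5.10 ± 0.25 in KO papilloma (adjusted p = 1.82e-06) and -5.71 ± 0.26 in WT SCC (adjusted p = 1.84e-06). Neb, the ruler protein of the thin filament, ranged from 0.465 to 2.98 CPM in lesions and from 65.6 to 150.4 CPM in skin. Actn2 and Actn3, the actinins that anchor thin filaments at the Z disc, had up to 2.12 and 4.36 CPM in lesions and at least 38.3 and 193 CPM in skin. Tcap and Myoz1, a Z disc protein of fast fibres, reached 5.19 and 2.12 CPM in WT SCC replicate 3 and stayed at or below 0.393 CPM in the other lesions. Xirp2, an actin-binding protein of striated muscle, had 0 counts in the 5 KO libraries and in WT SCC replicate 1, 0.432 and 3.80 CPM in the other WT carcinomas, and 39.1 to 112 CPM in skin.

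The troponin complex was split by fibre type. Tnnt3 (ENSMUSG00000061723.18, chr7:142498836-142516009) had 0.0866 and 0.0497 CPM in KO SCC, which are 3 and 2 counts, 0.186, 0.122 and 0.236 CPM in KO papilloma, 0.697, 1.89 and 20.5 CPM in WT SCC, and 1235, 1631 and 1143 CPM in WT skin. Every WT carcinoma lay above every lesion labelled KO, and all lesions lay below skin. Its log2 fold change against skin was -14.22 ± 1.82 in KO SCC (edgeR adjusted p = 0.00014), -12.83 ± 1.39 in KO papilloma (adjusted p = 6.77e-05) and -7.44 ± 1.07 in WT SCC (adjusted p = 0.000347), or -9.98 ± 0.51 without WT SCC replicate 3 (adjusted p = 5.24e-06). Tnni2 kept 4.79 to 19.1 CPM in lesions against 699 to 1002 CPM in skin.

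Tnni1, the inhibitory troponin of slow fibres, had 3.20 and 3.78 CPM in KO SCC, 3.64, 2.53 and 3.75 CPM in KO papilloma, 4.01, 4.57 and 4.01 CPM in WT SCC, and 1.24, 1.21 and 5.52 CPM in WT skin. Lesions lay above skin replicates 1 and 2 and below skin replicate 3. It did not pass in any lesion group (log2 fold change 0.39 ± 0.56 in KO SCC, 0.31 ± 0.50 in KO papilloma and 0.65 ± 0.50 in WT SCC, edgeR adjusted p = 0.583, 0.642 and 0.311). Without WT skin replicate 3 it was called higher in all 3 groups, by 1.505 ± 0.31, 1.44 ± 0.29 and 1.79 ± 0.29 (adjusted p = 0.00248, 0.00274 and 0.000823). Tnni1 and Tnnt1 were chosen for these statistics after their values were seen.

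Tnnt1 had 0.317 and 0.174 CPM in KO SCC, 0.452, 0.195 and 0.0262 CPM in KO papilloma, 0.203, 0.206 and 0.163 CPM in WT SCC, and 0.844, 0.483 and 7.0 CPM in WT skin. Its falls of -3.49 ± 1.24, -3.62 ± 1.06 and -3.85 ± 1.07 (edgeR adjusted p = 0.0403, 0.0191 and 0.0148) rest on skin replicate 3, without which they were -1.43, -1.54 and -1.77 (adjusted p = 0.259, 0.188 and 0.131). Tnnc1, the calcium-binding troponin of slow fibres, stayed between 0.144 and 0.556 CPM in lesions and between 0.298 and 0.504 CPM in skin. Tnnc2, the calcium-binding troponin of fast fibres, was the member left untested, with 0 counts in all 8 lesions and 3, 1 and 1 counts in skin. Of its 800 exon bases 74.0% lie under exons of Ube2c on the opposite strand (chr2:164777161-164779967), and Ube2c had 528, 1396 and 2085 counts in skin. The part of this overlap in the low count of Tnnc2 was not tested.

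The ratio of fast to slow troponin T in skin, Tnnt3 over Tnnt1 per kb, was 2037 in replicate 1, 4699 in replicate 2 and 227 in replicate 3. For troponin I, Tnni2 over Tnni1 per kb, it was 1623, 1994 and 305. For myosin-binding protein C the ratio of fast to slow form, Mybpc2 over Mybpc1 per kb, was only 1.56, 0.748 and 1.54. By the troponin ratios skin replicate 3 held the most slow troponin for its fast troponin. The summed level of Tnnt1, Tnni1, Tnnc1 and Myh7 was 13.1 CPM there against 2.98 and 2.46 CPM in the other skin libraries. Skin replicate 3 also had 7 counts of Y chromosome genes, against 6624 and 9552 in those libraries. The parts of this difference in sex genes and of the library itself in its slow troponin cannot be told apart. The same limit applies to the Tnni1 and Tnnt1 values that rest on skin replicate 3.

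Thick filament genes were 9 members, of which 8 fell in each lesion group and Myh7 did not pass. Myh4 (ENSMUSG00000057003.12, chr11:67238029-67260446) had 0 counts in both KO SCC libraries, 0, 0.170 and 0 CPM in KO papilloma, 0.0290, 0.309 and 9.76 CPM in WT SCC, and 1025, 407 and 879 CPM in WT skin. With 3 counts per library as the limit for a count of 0, Myh4 was at least 8896-fold lower in KO SCC than in WT skin. Its log2 fold change was -13.59 ± 1.96 in KO papilloma (edgeR adjusted p = 0.000494) and -7.83 ± 1.45 in WT SCC (adjusted p = 0.00206), or -11.99 ± 1.01 without WT SCC replicate 3 (adjusted p = 7.84e-05).

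Skin libraries differed in which fast heavy chain led. Of the 4 heavy chain genes per kb, Myh4 made up 78.7, 24.0 and 76.7% in skin replicates 1, 2 and 3, and Myh1 made up 19.1, 72.0 and 16.7%. Myh2 held 2.16, 3.94 and 6.61%, and Myh7 at most 0.0320%. Type IIb therefore led in replicates 1 and 3 and type IIx in replicate 2, and the slow chain was nearly absent from all 3. In WT SCC replicate 3, the lesion with enough counts for shares (1340 over the 4 genes), Myh1 held 50.6%, Myh4 33.1% and Myh2 16.1%. The other lesions had 10 to 156 counts over the 4 genes. The heavy chain genes are near-identical in places and how reads that match several genes were counted is not known, so these shares are uncertain.

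**Figure D3:**
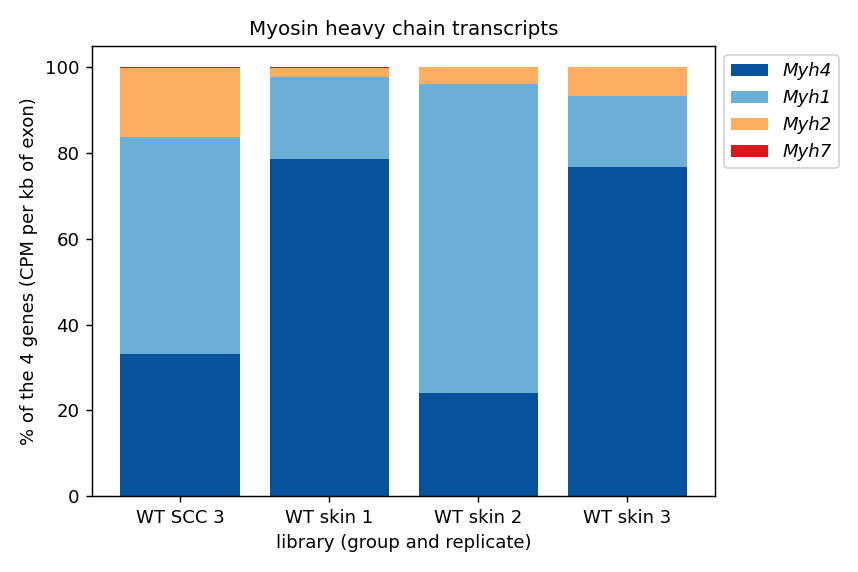
Share of each of the 4 myosin heavy chain genes in their summed level per kb, in percent, for WT SCC replicate 3 at the left and the 3 WT skin libraries at the right, as stacked bars. Myh4 is the largest part in skin replicates 1 and 3 (78.7 and 76.7%), and Myh1 is the largest in skin replicate 2 (72.0%) and in WT SCC replicate 3 (50.6%).

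Among the other thick filament genes, Mylpf kept 3.48 to 24.6 CPM in lesions against 612 to 828 CPM in skin. Myl1, the essential light chain of fast fibres, had 0 counts in KO papilloma replicate 3 and WT SCC replicate 1, 16.4 CPM in WT SCC replicate 3 and at least 509 CPM in skin. Mybpc1 and Mybpc2, the slow and fast forms of myosin-binding protein C, reached 3.42 and 3.24 CPM in lesions and had at least 109 and 136 CPM in skin. Ttn, the giant spring of the sarcomere, had 0.106 to 5.64 CPM in lesions and 124 to 258 CPM in skin.

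All 6 genes of calcium release and uptake fell in each lesion group. Atp2a1, the pump that returns calcium to the store in fast fibres (ENSMUSG00000030730.12, chr7:126445858-126463108), had 0.173 and 0.0745 CPM in KO SCC, 0.319, 0.365 and 0.367 CPM in KO papilloma, 0.116, 0.618 and 5.66 CPM in WT SCC, and 462, 686 and 455 CPM in WT skin. The lesions were far below skin, and WT SCC replicate 3 was again the highest of them. The log2 fold change against skin was -12.08 ± 1.51 in KO SCC (edgeR adjusted p = 0.000124), -10.56 ± 1.14 in KO papilloma (adjusted p = 6.64e-05) and -7.95 ± 0.99 in WT SCC (adjusted p = 0.000138). Without WT SCC replicate 3 the fold change of WT SCC was -10.41 ± 0.58 (adjusted p = 6.41e-06). Of its exon bases 21.9% lie under exons of Rabep2 on the opposite strand, as do 31.9% of those of Mb, 20.0% of Cacna1s, 15.5% of Ckm and 13.3% of Myh7 for other genes. The part of these overlaps in the counts was not tested.

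Tmem38a and Ryr1 kept the largest residual level of the calcium genes. Tmem38a, a cation channel of the sarcoplasmic reticulum, had 4.56 and 3.73 CPM in KO SCC, 3.77, 5.64 and 5.19 CPM in KO papilloma, 5.14, 5.11 and 6.06 CPM in WT SCC, and 69.7, 91.2 and 62.1 CPM in WT skin. That is 5.01 to 8.15% of the skin mean, and the log2 fold changes were -4.17 ± 0.26, -3.93 ± 0.21 and -3.77 ± 0.21 in KO SCC, KO papilloma and WT SCC (edgeR adjusted p = 3.14e-06, 2.19e-06 and 3.91e-06). Ryr1, the calcium release channel, stood at 3.33 to 9.97% of its skin mean. Pvalb had 0 counts in 5 lesions, 0.0531 CPM in KO papilloma replicate 1, 0.268 CPM in WT SCC replicate 2 and 11.2 CPM in WT SCC replicate 3, against 506 to 643 CPM in skin. Cacna1s, the voltage sensor of the fibre membrane, had at most 0.373 CPM in lesions, and Casq1, which binds calcium inside the store, at most 2.96 CPM.

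The 5 genes of energy and oxygen supply all fell. Ckm (ENSMUSG00000030399.2, chr7:19404776-19422841) had 0.231 and 0.0497 CPM in KO SCC, 0.399, 0.195 and 0.0262 CPM in KO papilloma, 0.0581, 0.741 and 11.3 CPM in WT SCC, and 687, 826 and 655 CPM in WT skin. Its log2 fold change against skin was -12.36 ± 1.98 in KO SCC (edgeR adjusted p = 0.000534), -11.76 ± 1.57 in KO papilloma (adjusted p = 0.00022) and -7.47 ± 1.26 in WT SCC (adjusted p = 0.000932), or -10.70 ± 0.92 without WT SCC replicate 3 (adjusted p = 5.21e-05). Eno3 and Pgam2, the muscle enolase and phosphoglycerate mutase of glycolysis, kept more. Eno3 had 2.42 to 10.7 CPM in lesions against 409 to 621 CPM in skin, and log2 fold changes of -7.32 ± 0.48, -6.83 ± 0.39 and -6.05 ± 0.37 in KO SCC, KO papilloma and WT SCC (edgeR adjusted p = 4e-06, 2.7e-06 and 4.69e-06). Pgam2 had 0.929 to 2.15 CPM against 68.1 to 130.3 CPM, and WT SCC replicate 3 at 1.77 CPM lay below both KO papilloma replicates 2 and 3. Its log2 fold changes were -6.21 ± 0.40, -5.79 ± 0.32 and -6.34 ± 0.33 (edgeR adjusted p = 3.85e-06, 2.7e-06 and 3.91e-06). Mb, the oxygen store myoglobin, had up to 2.66 CPM in lesions and 76.8 to 241 CPM in skin, and Pygm, the muscle glycogen phosphorylase, up to 2.89 CPM in lesions and 188 to 254 CPM in skin.

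Des, the intermediate filament desmin that links sarcomeres and is also made in smooth muscle (ENSMUSG00000026208.9, chr1:75360329-75368579), had 5.02 and 4.99 CPM in KO SCC, 9.03, 7.10 and 5.11 CPM in KO papilloma, 6.07, 7.62 and 15.3 CPM in WT SCC, and 329.6, 477 and 353 CPM in WT skin. It thus kept 1.29 to 3.95% of its skin mean, with log2 fold changes of -6.27 ± 0.47 in KO SCC, -5.77 ± 0.38 in KO papilloma and -5.32 ± 0.37 in WT SCC (edgeR adjusted p = 7.9e-06, 5.5e-06 and 7e-06). Smpx, a small protein of striated muscle, had 0 counts in 5 lesions, 0.0248 CPM in KO SCC replicate 2, 0.0824 CPM in WT SCC replicate 2, 1.02 CPM in WT SCC replicate 3, and 36.9 to 50.4 CPM in skin.

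The level of a member in lesions, as a share of its skin level, thus varied between members and, for most, between WT SCC replicate 3 and the rest. Over the 34 members with at least 10 counts in every skin library, the median member stood at 0.162 and 0.177% of its skin mean in KO SCC, at 0.152, 0.160 and 0.228% in KO papilloma, and at 0.0912, 0.300 and 2.33% in WT SCC. In WT SCC replicate 3 all 34 lay above 1%, with the lowest at 1.06%. In each of the other 7 lesions 24 to 26 of the 34 lay below 1%. Over the 34 members, Spearman's rank correlation with the skin mean was 0.836 in WT SCC replicate 3 and -0.0908 to 0.345 in the other 7 lesions. Whether the counts in those 7 lesions come from muscle was not tested.

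**Figure D4:**
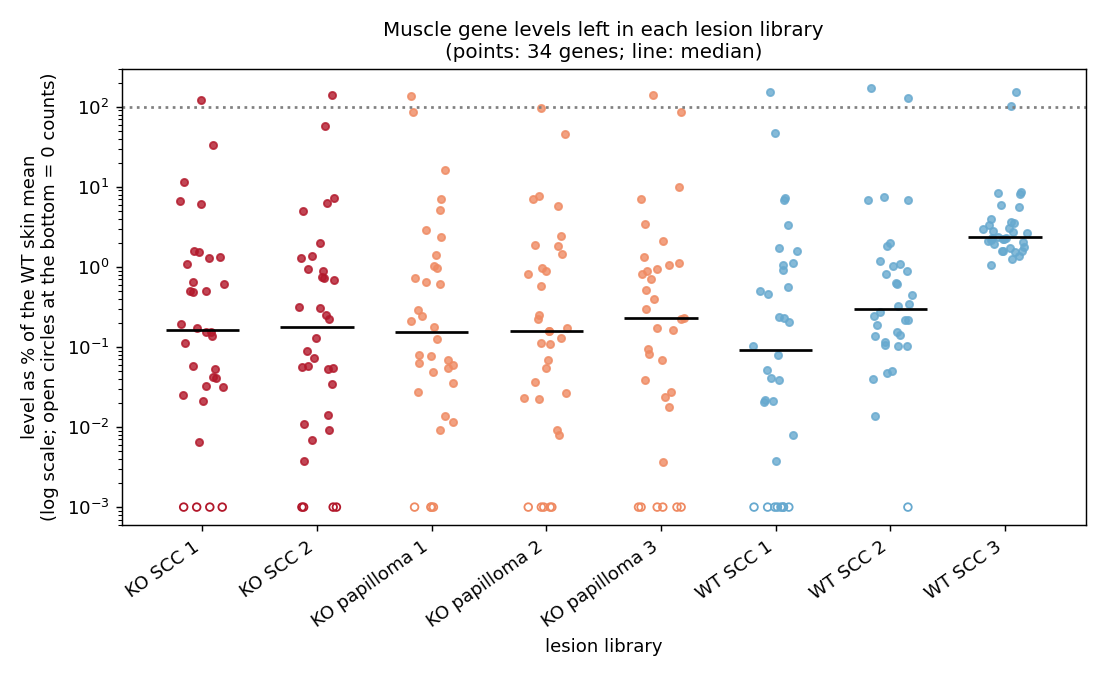
Level of each of the 34 members as a percentage of its mean in WT skin, on a log axis, for the 8 lesion libraries from KO SCC on the left to WT SCC on the right, with points for members, open circles at the bottom for 0 counts and a line at the median of each library. The medians lie between 0.0912 and 0.300% in 7 libraries and at 2.33% in WT SCC replicate 3.

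Carcinomas of both genotype labels were then compared with each other. Of the 35 members 1 fell in KO SCC relative to WT SCC and none rose, while 3.38% of all genes fell and 4.48% rose, and 18 members had an unadjusted p under 0.05, all lower. The call was Tnnt3, with a log2 fold change of -6.78 ± 1.60 (edgeR adjusted p = 0.029), and it was lost when either KO SCC library was left out (adjusted p = 0.203 and 0.146). DESeq2 called 10 members lower and gave no adjusted p for 7. Groups did not overlap for 7 members, all lower in KO SCC, where 23.7% of all genes were lower without overlap.

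The difference in the members as a whole rested on WT SCC replicate 3. The median log2 fold change between KO SCC and WT SCC was -1.60 with it and -0.31 without it, beside -0.01 and 0.03 over all genes. Acta1 (-5.39 ± 1.68, edgeR adjusted p = 0.0738), Atp2a1 (-4.12 ± 1.38, adjusted p = 0.0916), Ckm (-4.88 ± 1.72, adjusted p = 0.106) and Des (-0.95 ± 0.37, adjusted p = 0.139) did not pass. Myh4 was at least 38.9-fold lower in KO SCC by the limit of 3 counts (adjusted p = 0.106). Without WT SCC replicate 3 that bound was 1.95-fold (adjusted p = 0.241), and Acta1 stood at -1.84 ± 0.73 (adjusted p = 0.192), Atp2a1 at -1.67 ± 0.70 (adjusted p = 0.214), Ckm at -1.65 ± 1.04 (adjusted p = 0.389) and Des at -0.45 ± 0.27 (adjusted p = 0.368). Tnnt3 was still called without it, at -4.25 ± 0.61 (adjusted p = 0.00799). Without WT SCC replicate 1 the number called was 5. Some markers of other cell types were called in the same comparison, where 3.38% of all genes fell and 4.48% rose. Lower in KO SCC were 3 of 12 smooth muscle genes (Acta2, Smtn and Synpo2). So were 2 of 12 genes of nerve and Schwann cells (Scn7a and Sox10) and 1 of 12 fibroblast genes (Pdgfra). Also lower were 1 of 10 leukocyte genes (Lyz2) and 2 of 12 keratinocyte genes (Krt10 and Krt15). Those higher were 1 of 12 keratinocyte genes (Perp) and 1 of 15 adipocyte genes (Pparg). Whichever WT SCC library was left out, fewer smooth muscle genes and fewer nerve and Schwann cell genes were called, and Lyz2 was not. The part of these markers in the muscle values was not tested.

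Papillomas labelled KO, which differ from WT SCC in lesion and genotype label together, were set against the same 3 WT SCC libraries. Of the 35 members 2 fell and none rose, where 1.77% of all genes fell and 3.49% rose, and the median log2 fold change was -2.01 (-1.78 with members at 0 counts set to their bound), beside 0.02 over all genes. The calls were Acta1 (-5.58 ± 1.42, edgeR adjusted p = 0.0465) and Tnnt3 (-5.40 ± 1.16, adjusted p = 0.0216). Myh4 (-5.76 ± 1.84, adjusted p = 0.112), Ckm (-4.28 ± 1.35, adjusted p = 0.101), Atp2a1 (-2.61 ± 0.98, adjusted p = 0.171) and Des (-0.45 ± 0.32, adjusted p = 0.494) did not pass. DESeq2 called 8 members lower. Without WT SCC replicate 3 the median was -0.14 and Acta1 was no longer called (-2.03 ± 0.65, adjusted p = 0.144), while Tnnt3 was (-2.86 ± 0.44, adjusted p = 0.00805). Myh4 was then at -1.60 ± 1.25 (adjusted p = 0.535), Ckm at -1.06 ± 0.85 (adjusted p = 0.551), Atp2a1 at -0.16 ± 0.52 (adjusted p = 0.915) and Des at 0.05 ± 0.25 (adjusted p = 0.951). Without any 1 of the papilloma libraries neither gene passed (adjusted p 0.0734 to 0.157), and without WT SCC replicate 1 the number called was 5.

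The lesions labelled KO were compared with each other last. In KO SCC relative to KO papilloma edgeR called 0 of 35 members, where 0.286% of all genes passed in either direction. At an unadjusted p under 0.05 there was 1 member, Tmod4, which was lower in KO SCC, and DESeq2 called 0. The median log2 fold change was -0.23, beside -0.05 over all genes. Among the index genes Acta1 differed by 0.19 ± 1.87, Tnnt3 by -1.39 ± 2.17, Atp2a1 by -1.51 ± 1.64, Ckm by -0.60 ± 2.21 and Des by -0.50 ± 0.37. For genes with so few counts in both groups these errors leave large differences undetectable at this depth.

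Muscle genes outside the set were also lower in lesions. Of 56 further skeletal muscle genes 55 were tested, and 51 fell in KO SCC, 51 in KO papilloma and 50 in WT SCC relative to WT skin, with none higher (24.3, 22.4 and 23.6% of all genes fell). Of the 55, 18 met the filter on low counts only with the skin libraries and so had to be higher there to be tested. The counts of these 55 genes are therefore a description. Myom1, a protein of the M line that cross-links thick filaments, had 1.41 and 1.49 CPM in KO SCC, 1.91 to 2.70 CPM in KO papilloma, 2.61 to 4.29 CPM in WT SCC and 65.1 to 120 CPM in WT skin. In KO SCC relative to WT SCC, Myom1 was the 1 gene of the 55 that fell (-1.16 ± 0.32, edgeR adjusted p = 0.0471), and in KO papilloma relative to WT SCC it was Klhl41 (-4.24 ± 1.05, adjusted p = 0.0421), a protein of the sarcomere. These are 1 of 55 genes each, where 3.38 and 1.77% of all genes fell. Myom1 was no longer called when any 1 library of its comparison was left out (adjusted p 0.0568 to 0.284), and Klhl41 when WT SCC replicate 3 (adjusted p = 0.0931) or any 1 papilloma library (adjusted p 0.0708 to 0.142) was left out. The summed level of the 56 genes was 83.1 and 86.4 CPM in KO SCC, 76.1 to 85.7 CPM in KO papilloma, 78.2, 93.6 and 131 CPM in WT SCC, and 1423 to 2221 CPM in WT skin.

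Of 17 genes of muscle stem cells and developing fibres 13 were tested, and 9 fell in KO SCC, 11 in KO papilloma and 9 in WT SCC. Over all genes 24.3, 22.4 and 23.6% fell. With a library left out, the number called in either direction was 8 to 11 in KO papilloma and 7 to 11 in WT SCC. For KO SCC that number was below the one with all libraries, whichever WT skin library was left out. The 9 that fell in KO SCC are therefore not firmer than the counts of the other groups. Of the 13, 7 (Cdh15, Chodl, Dlk1, Myf5, Myod1, Myog and Pax7) met the filter only with the skin libraries and so had to be higher there to be tested, so these counts are a description. Pax7, the marker of muscle stem cells, had 0 counts in all 8 lesions and 0.0497 to 0.247 CPM in skin. Tnnt2, a troponin T of heart and developing muscle, went the other way, with 43.6 and 21.5 CPM in KO SCC, 21.1 to 32.5 CPM in KO papilloma, 26.1 to 32.9 CPM in WT SCC and 5.64 to 10.5 CPM in WT skin. It rose by 2.09 ± 0.32, 1.86 ± 0.30 and 1.92 ± 0.30 on the log2 scale (edgeR adjusted p = 0.000431, 0.000711 and 0.000596).

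Genes of other cell types of the skin also differed between lesions and skin. Over all genes 24.3, 22.4 and 23.6% fell and 20.5, 17.1 and 16.9% rose in KO SCC, KO papilloma and WT SCC. Of 15 adipocyte genes 14 fell in each lesion group, and these exclude Fabp4, a fatty acid carrier. The 14 genes without Fabp4, a split made after its values were seen, summed to 96.8 and 96.4 CPM in KO SCC, 97.0 to 554 CPM in KO papilloma, 86.8 to 146 CPM in WT SCC and 3746 to 5404 CPM in WT skin. Fabp4 itself had 3154 and 3384 CPM in KO SCC, 968 to 3345 CPM in KO papilloma, 1751 to 2676 CPM in WT SCC and 969 to 1101 CPM in WT skin. All 12 genes of nerve and Schwann cells fell in each group, with a sum of 40.7 and 56.4 CPM in KO SCC, 65.3 to 87.6 CPM in KO papilloma, 51.0 to 66.1 CPM in WT SCC and 419.5 to 564 CPM in WT skin. Of 12 fibroblast genes 10, 10 and 9 fell, and of 12 smooth muscle genes 7, 6 and 5 fell, in KO SCC, KO papilloma and WT SCC. The exceptions that rose were Fabp4 among adipocyte genes, in KO SCC and WT SCC, and Smtn among smooth muscle genes, in WT SCC. With a library left out, 6 to 10 fibroblast genes were called in KO papilloma and 5 to 9 in WT SCC. No such range is given for KO SCC, because leaving out either of its 2 libraries leaves 1, so its count is not firmer than the others. The fibroblast sum was 1210 and 3503 CPM in KO SCC, 1939 to 4045 CPM in KO papilloma and 2553 to 4381 CPM in WT SCC. In WT skin it spread from 5479 to 37090 CPM. Of 12 keratinocyte genes 6, 8 and 7 rose and 3, 1 and 3 fell, and their sum was 62036 and 58188 CPM in KO SCC, 49839 to 77558 CPM in KO papilloma, 44591 to 46463 CPM in WT SCC and 12029 to 22007 CPM in WT skin. With a library left out, 8 to 9 keratinocyte genes were called in KO papilloma and 9 to 11 in WT SCC. In KO SCC fewer keratinocyte genes were called whichever WT skin library was left out. Of 10 leukocyte genes 1 rose in each group and 7, 7 and 6 fell. The part of this shift in cell type markers in the level of the muscle genes was not tested.

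Smooth muscle and heart muscle share some parts with the skeletal set, among them Des, Tnnc1 and Myh7. The summed level of the 12 smooth muscle genes was 163 and 155 CPM in KO SCC, 188 to 341 CPM in KO papilloma, 326, 369.6 and 406 CPM in WT SCC, and 501 to 521 CPM in WT skin. That of 8 heart muscle genes was 46.4 and 14.7 CPM in KO SCC, 8.05 to 11.8 CPM in KO papilloma, 17.4, 14.9 and 15.6 CPM in WT SCC, and 10.8 to 17.7 CPM in WT skin. Of the 5 heart genes tested 2, 1 and 1 rose and 2, 1 and 1 fell in KO SCC, KO papilloma and WT SCC relative to skin. Myl7 rose in each group, by 2.15 ± 0.45, 2.75 ± 0.42 and 2.03 ± 0.42 on the log2 scale (edgeR adjusted p = 0.00264, 0.000529 and 0.00299). Nppb rose in KO SCC (3.55 ± 0.75, edgeR adjusted p = 0.00292). Those that fell were Myl4 in each group and Tnni3 in KO SCC. The heart calls in KO SCC were not kept in every fit with a library left out. They come from 2 libraries, of which replicate 2 had a heart sum of 14.7 CPM, within the range of skin. With a library left out, 2 heart genes were called in KO papilloma and 1 to 4 in WT SCC. Nppa, the atrial hormone, was at 0 in 7 of the 8 lesions, and its level in skin is not given here, so no fall is stated.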

How the data were processed

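Libraries were made with a stranded mRNA kit, per the labels' protocols. The authors deposited whole-number counts per gene, with no normalization, as a mouse table and an A431 table. HISAT2, StringTie and DESeq with the builds mm10 and hg38 are named in the submitters' processing notes, with no versions. The annotation, counting rule, strand setting and treatment of reads that match several places are not recorded in the sources used here, which leaves overlapping genes and near-identical copies uncertain.

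Rows without a gene name held 0.115 to 0.496% of a mouse library's counts and were left out. All 11 mouse libraries, in 4 groups, entered 1 fit in edgeR 4.0.16 (R 4.3.3), with its default filter on low counts (22371 genes kept), TMM normalization (factors 0.816 to 1.24) and the two-sided quasi-likelihood test. Adjusted p-values are Benjamini-Hochberg values over all genes of a comparison, called at 0.05. SE is the size of the log2 fold change divided by the square root of F. Levels are CPM of the TMM-scaled library size, and CPM per kb divides by the GENCODE M21 exon length on GRCm38. A gene at 0 was given a limit of 3 counts per library, which covers counting error only. Replicates correlated at 0.896 to 0.983 (Pearson's r over genes, log2 CPM).

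Alternatives were RLE size factors, no filter, DESeq2 1.42.0, a fit of the 2 groups compared, members left out of library sizes, the replicate number as a block, and leaving out each library. The members and gene lists were chosen with earlier results of these data known. Statistics are given for Acta1, Myh4, Tnnt3, Atp2a1, Ckm and Des, for up to 4 further members with the smallest p in a comparison, and for up to 3 genes of each other list. The A431 table was used for the closing values alone.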

Additional observations from a re-analysis of the deposited data

Results flagged for a closer look

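The A431 libraries, from a human squamous carcinoma line recovered from xenografts, take no part in the comparisons of muscle genes. The 36 human genes with the same symbols summed to 121 to 133 CPM in the DUSP1 KO libraries and 111 to 116 CPM in the control libraries (3 libraries each), which is above the limit that a count of 0 allows. A difference between these groups was not tested.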

How the results depend on the processing

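Relative to skin, 31 to 32 members were called in each lesion group when any 1 library was left out, and 31 in each with the replicate number as a block; without WT skin replicate 3 the calls were 31 lower and 1 higher (Tnni1). In KO SCC against WT SCC (1 call) there were 18 calls with no filter, 3 with the 2 groups alone, 10 with DESeq2 and 0 to 5 with a library left out. In KO papilloma against WT SCC (2 calls) there were 19 with no filter, 8 with DESeq2 and 0 to 5 with a library left out. The cause of these shifts was not tested. With KO SCC reduced to 1 library, that library is assumed to vary like the others.

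With the replicate number as a block there were 0 calls in KO SCC against WT SCC and 1 in KO papilloma against WT SCC. No pairing by number was seen: the correlation of deviations ran from -0.411 to 0.166 over 15 pairs of libraries with the same number, and 3 exceeded 0.1. Deviations from the mean of a group of 2 or 3 libraries sum to 0, so this check cannot decide whether samples are paired.

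With no scaling beyond the library total, the mean summed level was 34.4 CPM in KO SCC, 39.4 CPM in KO papilloma and 13915 CPM in WT skin. Without the 4 members of highest level it was 32.8, 36.5 and 6741 CPM. With a library left out it was 36.8 to 45.0 CPM in KO SCC, 41.3 to 43.7 CPM in KO papilloma, 46.3 to 159.7 CPM in WT SCC and 10363 to 12133 CPM in WT skin.

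Of 544 single-gene values 510 kept direction and call, 17 gained a call, 12 lost it and 5 changed sign, none of them called. Des in KO papilloma against WT SCC ran from -0.69 to 0.047, above 0 without WT SCC replicate 3. In KO SCC against KO papilloma, Acta1 ran from -0.50 to 0.85 with a library left out and was -0.13 without papilloma replicate 2 and -0.50 without KO SCC replicate 1, and Ckm ran from -1.99 to 0.25 and was 0.25 without papilloma replicate 1 and 0.16 without KO SCC replicate 2.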

Other observations

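In A431 the sum was carried by few genes. TNNT1 had 51.0, 49.2 and 53.2 CPM in the DUSP1 KO libraries and 58.0, 54.5 and 60.9 CPM in the control libraries. TNNI2 had 31.9, 32.8 and 37.8 CPM in the DUSP1 KO libraries and 10.7, 12.2 and 12.1 CPM in the control libraries, and 9 to 15 of the 36 genes had 0 counts in a library. Both were chosen after their values were seen, and the differences, which run in opposite directions, were not tested here.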
